A study of Mus musculus with 30 samples.

Results

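The heat shock chaperones examined here are 10 genes, Hspa1a, Hspa1b, Hspa8, Hsp90aa1, Hsp90ab1, Hsph1, Dnajb1, Dnaja1, Hspb1, and Hspd1, chosen by name and found by their Ensembl identifiers among the 55335 genes of the count table. Livers came from male mice of an albino C57BL/6J background, 7 to 10 weeks old, 24 hours after a single gavage with CDDO-Me (bardoxolone methyl, 30 µmol/kg) or with its vehicle of DMSO, Cremophor-EL, and PBS. CDDO-Me is a triterpenoid that activates NRF2, a transcription factor of antioxidant and detoxication genes, by reacting with its repressor KEAP1. The 6 groups were vehicle-treated and CDDO-Me-treated wild-type (WT) mice, C151S mice, which are homozygous for a CRISPR-Cas9 knock-in that replaces a reactive cysteine of KEAP1 by serine, and Nrf2-knockout mice, with 5 mice and 5 mRNA libraries in each group. Wild-type mice were purchased and both mutant lines were bred as homozygotes, so that line and genotype cannot be told apart. The comparisons ask whether CDDO-Me moved the chaperones and whether this depended on the cysteine or on NRF2.

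Chaperones bind unfolded protein chains and help them to fold. Most of these genes are transcribed by heat shock factor 1 (HSF1), which is held inactive by chaperones and released when unfolded or chemically modified proteins draw them away. Electrophiles that activate NRF2 by modifying cysteines can also activate HSF1, and in liver the cytosolic chaperones additionally rise and fall over the day with body temperature and feeding. The label of a cytosolic group holds for 9 of the 10 genes. Hspd1 encodes HSP60, the chaperonin of the mitochondrial matrix, and is kept here as the rule listed it.

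HSF1 binds inverted repeats of a short unit, and the promoters are shown because the members that carry such repeats can be set beside those that do not. RefSeq promoter windows on build GRCm38.p6, from 250 bases before to 50 bases after an annotated start site, were at hand for 7 of the 10 members, in 12 windows. Hspa8, Hsp90aa1, and Hsp90ab1 had no entry. Both strands were searched for pairs of units, GAANNTTC and TTCNNGAA, which can overlap each other. A pair was found in 7 of the 12 windows, against 15.1% of all 32851 windows, and in 6 of the 7 genes. The letters of 3 units in a row, GAANNTTCNNGAA, were in 3 of the 12 windows, those of Hspd1 and Hsph1, against 0.603% of all windows. The core letters of the NRF2 element, TGACNNNGC, were in 3 of the 12 windows, those of Hsph1 and Dnajb1, against 12.4%. The stretches around the pairs are given 5′ to 3′ on the strand of the gene, with the matched letters in capitals and positions counted from the start site.
Hspa1a (chr17:34972243-34972270, minus strand, positions -114 to -87): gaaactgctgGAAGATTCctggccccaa
Hspa1b (chr17:34959325-34959352, minus strand, positions -114 to -87): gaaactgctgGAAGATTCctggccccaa
Dnaja1 (chr4:40722334-40722361, plus strand, positions -134 to -107): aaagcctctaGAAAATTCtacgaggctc
Hspb1 (chr5:135887792-135887839, plus strand, positions -127 to -80): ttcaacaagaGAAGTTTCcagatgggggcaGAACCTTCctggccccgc
Hspd1 (chr1:55088049-55088086, minus strand, positions -154 to -117): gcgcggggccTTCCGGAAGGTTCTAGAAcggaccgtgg
Hsph1, upstream (chr5:149636352-149636379, minus strand, positions -43 to -16): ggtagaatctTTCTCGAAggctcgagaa
Hsph1, downstream (chr5:149636287-149636310, minus strand, positions 26 to 49): atgctgcagaTTCTGGAAAGTTCt
Both stretches of Hsph1 also lay in its other window, counted there from another start site. The stretches of Hspa1a and Hspa1b were identical, and their full windows shared 296 of 300 bases. The windows of Dnajb1 held no pair. A match is a string of letters and not a measured binding site, and the members with and without one were not sorted by it in what follows.

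**Figure D1:**
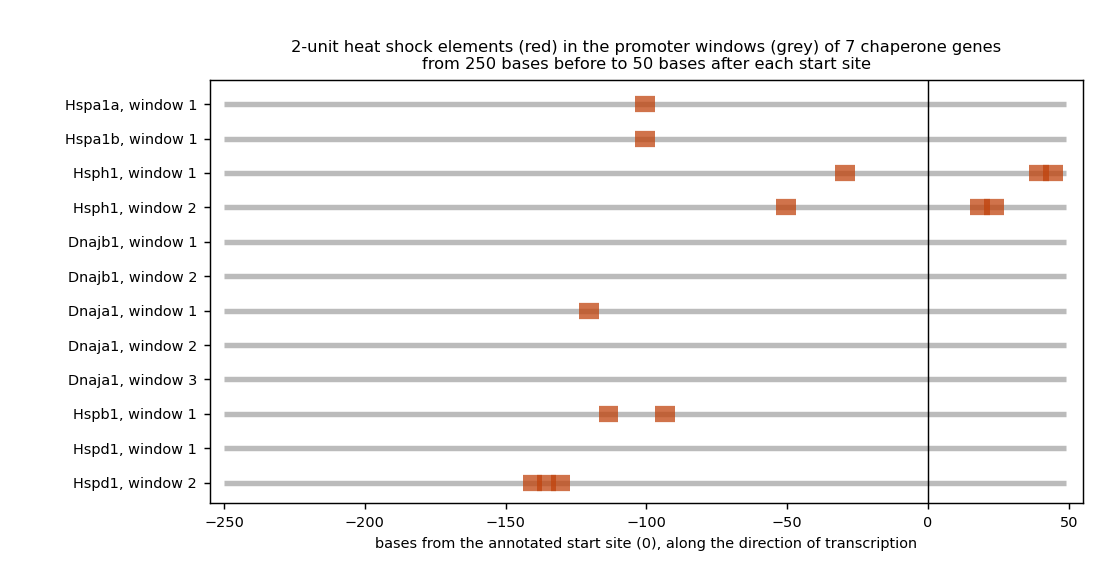
Position of the unit pairs (red) in the 12 promoter windows (grey bars, 1 row per window), with distance from the annotated start site in bases on the x axis. The pairs of Hspa1a, Hspa1b, Dnaja1, Hspb1, and Hspd1 begin between positions -144 and -97, those of Hsph1 lie on both sides of it, and the windows of Dnajb1 hold none.

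Between 23667068 and 42073169 counts fell on genes in each library. Nfe2l2, which encodes NRF2, lay between 22.4 and 39.8 CPM (counts scaled to library size, normalized by edgeR's trimmed mean of M values) in the 10 Nrf2-knockout libraries and between 42.0 and 84.9 CPM in the other 20, and its target Nqo1 rose with CDDO-Me in WT mice (log2 fold change 3.16, SE 0.28, edgeR quasi-likelihood test, adjusted p = 3.87e-05). None of these values went against a label. The 6 hepatocyte markers were high in every group, with a summed level of 70730 to 152400 CPM. In whole liver, fewer cells of a type and less RNA per cell cannot be told apart. Libraries stood apart by Arntl, which encodes the clock factor BMAL1. The widest gap in Arntl log2 CPM parted 11 libraries with -1.15 to 0.90 (called Arntl-low) from 19 with 2.52 to 4.79 (Arntl-high). The Arntl-low libraries were 2 vehicle-treated and 3 CDDO-Me-treated C151S mice and 3 vehicle-treated and 3 CDDO-Me-treated Nrf2-knockout mice, and no WT mouse was among them. Results of the 10 members in C151S mice that rest on these libraries are therefore given with and without them. For other genes they are given with all libraries only.

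The chaperones covered a wide range of levels. With counts scaled per kilobase of exon, so that genes of different length can be compared, the order of the median over 30 libraries was Hsp90ab1 (261 CPM per kb), Hspd1 (161), Hspa8 (137), Hsp90aa1 (26.1), Dnaja1 (12.8), Hsph1 (6.92), Dnajb1 (5.60), Hspb1 (4.55), Hspa1b (1.15), and Hspa1a (0.092). The genes of constant supply, HSP90β and the constitutive HSP70 (Hspa8), thus stood near the top, and the strictly inducible HSP70 genes Hspa1a and Hspa1b at the bottom. The exon length joins all annotated exons of a gene. It exceeds the longest coding transcript for Hspa8 (4301 against 2394 bases) and Hsph1 (7266 against 3802), among others. The order of genes with close levels may therefore change with the length used. In vehicle-treated WT mice the ranges of Hspd1 (147 to 165 CPM per kb) and Hspa8 (127 to 163) overlapped, as did those of Hsph1 (5.96 to 11.1), Hspb1 (4.81 to 10.9), and Dnajb1 (4.92 to 6.14). The spread over all 30 libraries also differed between genes. The highest library exceeded the lowest 1.64-fold for Hspd1, 1.71-fold for Hsp90ab1, 5.48-fold for Hsph1, 12.003-fold for Hspb1, and 16.7-fold for Hspa1b. Hspa1a had 0 to 44 counts per library.

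These levels may be partial for several members, though a loss of reads was not measured. The authors counted reads with a single position, and of the 50-base words of the longest transcript, 66.3% in Hspa1a, 62.3% in Hspa1b, 74.8% in Hspa8, 58.5% in Hsp90aa1, 51.6% in Hspb1, and 44.8% in Hspd1 also occur in transcripts of other genes, mostly processed pseudogenes or, for the HSP70 pair, each other. The share was 28.8% in Dnaja1, 4.49% in Hsp90ab1, 0.441% in Dnajb1, and 0.0% in Hsph1. Reads that matched Hspa1a and Hspa1b equally well were thus not counted for either, and the levels of the pair are uncertain and may be too low. Comparisons of 1 gene between groups use the same counting in every library.

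**Figure D2:**
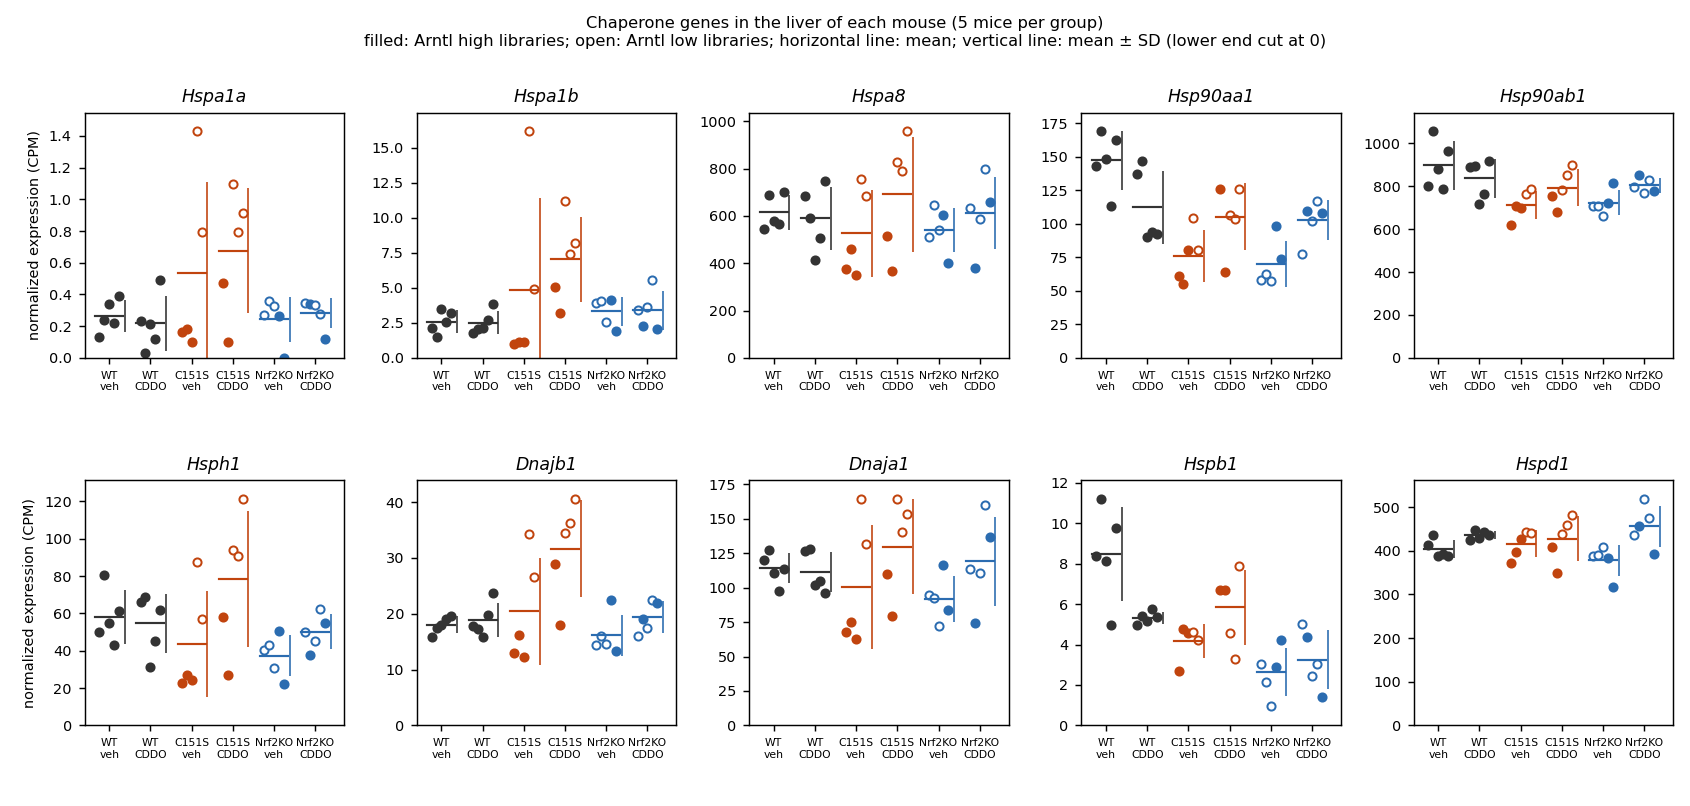
Normalized expression (CPM, y axis, linear from 0) of the 10 chaperone genes in each mouse of the 6 groups, with the mean (horizontal line) and SD (vertical line, cut at 0) of 5 mice. Open points are Arntl-low libraries. In C151S mice the open points of Hspa8, Dnaja1, Hsp90ab1, Hspd1, and Hspa1a all lie above the filled ones.

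No chaperone of WT mice passed the test for a change with CDDO-Me. Of the 9 members tested, 0 were called (false discovery rate under 0.05 and absolute log2 fold change of at least 0.5) by edgeR's quasi-likelihood test, where 2.75% of 13697 genes were. At an unadjusted p under 0.05 there were 2, Hspb1 and Hsp90aa1, both lower after CDDO-Me, where 17% of all genes were. DESeq2 called 1, Hspb1. Hspa1a had too few counts to be tested. The member median was -0.07 on the log2 scale and that of all genes -0.01.

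Hspb1, the small heat shock protein that holds unfolded proteins in a refoldable state, was measured at 8.39, 11.2, 8.11, 4.96, and 9.75 CPM in the vehicle-treated WT mice and at 4.97, 5.39, 5.19, 5.78, and 5.35 CPM in those given CDDO-Me. Of the vehicle-treated mice, 4 of 5 lay above all treated ones, and replicate 4 lay below them. The log2 fold change was -0.68 (SE 0.18, edgeR quasi-likelihood adjusted p = 0.0509), just outside the threshold. Without that vehicle-treated mouse it was -0.82 (SE 0.11, edgeR adjusted p = 0.00227). Over the 10 fits with 1 mouse left out it ran from -0.82 to -0.55, with edgeR adjusted p up to 0.128. Over the 9 other settings the adjusted p ran from 0.00623 (DESeq2) to 0.443 (edgeR). Of the lymphocyte and granulocyte markers, S100a8 rose in the same comparison, and its part in the Hspb1 level was not tested.

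Hsp90aa1, the stress-inducible HSP90α, measured 143, 169, 148, 113, and 162 CPM with vehicle and 137, 147, 90.3, 93.9, and 92.5 CPM with CDDO-Me in WT mice. The ranges overlapped, with 3 of the 5 treated mice below every vehicle-treated one (-0.40, SE 0.16, edgeR adjusted p = 0.206). For the other members the 95% intervals bound what the data allow in WT mice. They ran from -0.61 to 0.50 for Hspa1b, from -0.56 to 0.37 for Hsph1, from -0.17 to 0.29 for Dnajb1, and from -0.39 to 0.25 for Hspa8, all in log2 units.

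No chaperone of the mutant lines passed the test either, and with all libraries the estimates lay above 0. In C151S mice 0 of 10 members were called (background 0.092% of 14128 genes), and 0 by DESeq2. An unadjusted p under 0.05 was reached by 1 member, and by 13.7% of all genes. All 10 estimates were positive with a median of 0.43 against -0.01 over all genes. In Nrf2-knockout mice 0 of 10 were called (background 0.0% of 14474 genes), and 0 by DESeq2. There 2 members had an unadjusted p under 0.05, as had 7.85% of all genes, and all 10 estimates were positive with a median of 0.26. With only Arntl-high libraries (3 vehicle-treated against 2 CDDO-Me-treated C151S mice) the member median was 0.54 and Hspd1 was at -0.07, and with only Arntl-low ones, an alternative chosen after seeing the data, it was 0.19, with Hspa1a at -0.24 and Hspa1b at -0.23. In Arntl-high Nrf2-knockout mice (2 against 2) the median was 0.06, with Hspa1b at -0.51 and Hspb1 at -0.32, and in Arntl-low ones it was 0.29. The members vary together between libraries, so that 10 like signs are not 10 observations. Hsph1, the HSP110 exchange factor that recharges HSP70, had the largest estimate in C151S mice, 0.84 (SE 0.45, edgeR adjusted p = 0.410). In Arntl-high C151S mice it was at 0.80 and Hspa1b at 1.94 (SE 0.28, edgeR adjusted p = 0.455), and in Arntl-low ones Hsph1 was at 0.50. Hsp90aa1 had the largest in Nrf2-knockout mice, 0.54 (SE 0.17, edgeR adjusted p = 0.547).

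**Figure D3:**
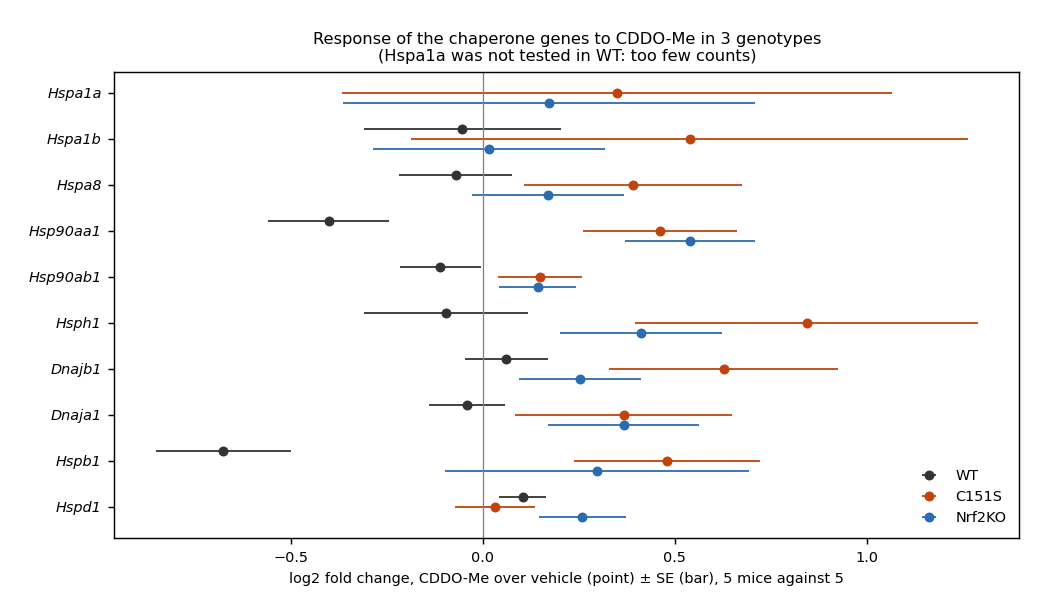
Log2 fold change of each chaperone gene, CDDO-Me over vehicle (x axis), with SE (bars), in WT (black), C151S (red), and Nrf2-knockout mice (blue), 5 mice against 5 in each. Hspb1 and Hsp90aa1 lie furthest below 0 in WT mice (-0.68 and -0.40), the estimates of both mutant lines lie above 0, and no estimate was called.

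Whether the response differed between genotypes was tested as a contrast over all 30 libraries. For C151S against WT mice 0 of 10 members were called (background 0.48% of 15010 genes; 2 at an unadjusted p under 0.05), for Nrf2-knockout against WT mice 0 (background 0.266%; 2 unadjusted), and for Nrf2-knockout against C151S mice 0 (background 0.0133%; 0 unadjusted). The shares of all genes at an unadjusted p under 0.05 were 8.31%, 6.28%, and 4.92% in the same order. DESeq2 called 0 members in each contrast. The response of Hsp90aa1 was higher than in WT mice by 0.86 in C151S mice (SE 0.27, edgeR adjusted p = 0.287) and by 0.94 in Nrf2-knockout mice (SE 0.27, edgeR adjusted p = 0.221). Those of Hspb1 were higher by 1.15 (SE 0.43, edgeR adjusted p = 0.460) and 0.98 (SE 0.43, edgeR adjusted p = 0.715). With only Arntl-high libraries the latter was 0.36 (SE 0.47, edgeR adjusted p = 0.921), and the other 3 values lay between 0.72 and 1.41. Both contrasts share the WT mice, in which both genes had their highest group mean with vehicle.

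Before any CDDO-Me, 2 members were lower in each mutant line than in WT mice, and in both lines these were Hsp90aa1 and Hspb1. The 2 comparisons share the vehicle-treated WT mice. Of 9 members tested in C151S against WT mice, 2 were called, both lower, against 4.84% of 13946 genes called and 2.25% called lower. In Nrf2-knockout against WT mice it was again 2 of 9, both lower, against 10.4% of 14030 genes called and 4.13% called lower. Hsph1, at -0.62 (SE 0.22, edgeR adjusted p = 0.0708) in Nrf2-knockout against WT mice, was called by DESeq2 (-0.63, adjusted p = 0.0333) and without Nrf2-knockout replicate 4 (-0.76, edgeR adjusted p = 0.0357). With another mouse left out its edgeR adjusted p reached 0.152, and with only Arntl-high libraries it was 0.244. Between the vehicle-treated mutant lines 0 of 9 members were called (background 0.349% of 14323 genes), and 0 by DESeq2. An unadjusted p under 0.05 was reached by 0 members, and by 11.3% of all genes.

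Hsp90aa1 measured 60.8, 54.9, 80.6, 104, and 80.1 CPM in vehicle-treated C151S mice and 58.1, 62.7, 57.3, 98.4, and 73.4 CPM in vehicle-treated Nrf2-knockout mice. Every mutant value lay below the lowest WT value of 113 CPM, and the mutant lines overlapped. The means and SD (n = 5) were 147 ± 21.8 CPM for WT, 76.1 ± 19.3 for C151S, and 70.0 ± 17.1 for knockout animals. The log2 difference from WT was -0.94 in C151S mice (SE 0.16, edgeR quasi-likelihood adjusted p = 0.00695) and -1.05 in Nrf2-knockout mice (SE 0.17, edgeR adjusted p = 0.00269). After CDDO-Me the difference was -0.08 (95% interval -0.51 to 0.36) in C151S and -0.11 (-0.47 to 0.25) in Nrf2-knockout mice. The vehicle difference in Nrf2-knockout mice shrank to -0.74 with only Arntl-high libraries (SE 0.18, edgeR adjusted p = 0.0421). With the Arntl side as a covariate it was -0.74 (SE 0.17, edgeR adjusted p = 0.0265).

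Hspb1 measured 2.68, 4.76, 4.57, 4.62, and 4.21 CPM in vehicle-treated C151S mice and 3.02, 2.14, 0.935, 2.87, and 4.21 CPM in vehicle-treated Nrf2-knockout mice. All 10 mutant values lay below the lowest WT value of 4.96 CPM. The log2 difference from WT was -1.01 in C151S mice (SE 0.22, edgeR adjusted p = 0.0168) and -1.68 in Nrf2-knockout mice (SE 0.33, edgeR adjusted p = 0.00731). In the fit of all 30 libraries the C151S difference was -1.02 with an adjusted p of 0.0505. The call in Nrf2-knockout mice was lost with the Arntl side as a covariate (-1.23, SE 0.40, edgeR adjusted p = 0.0848), and held with only Arntl-high libraries (-1.23, SE 0.31, edgeR adjusted p = 0.0431).

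Markers of other cells also differed at baseline. In vehicle-treated Nrf2-knockout against WT mice 4 of 7 stellate cell and fibroblast markers were higher, with a summed level of 191.9 to 511.6 against 173.9 to 261.7 CPM, and 4 of 6 sinusoidal endothelial markers, with 201.5 to 331.8 against 159.0 to 193.6 CPM. Of 6 lymphocyte and granulocyte markers 2 were higher (1.79 to 9.24 against 2.58 to 3.998 CPM). In vehicle-treated C151S against WT mice 1 of 6 endothelial markers, Fcgr2b, was higher and 1 of 5 cholangiocyte markers, Spp1, was lower. Of all genes 6.29% were called higher in Nrf2-knockout mice, and 2.59% higher and 2.25% lower in C151S mice. The part of these cells in the chaperone levels was not tested.

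The vehicle-treated C151S group was itself split. For Hsph1 its mice measured 22.5, 26.7, 24.1, 87.6, and 57.1 CPM, the last 2 being the Arntl-low libraries, while WT mice lay between 43.3 and 80.6 CPM. For Dnaja1, the J protein that hands clients to Hspa8, they measured 68.1, 74.8, 63.1, 164.6, and 131.4 CPM, against 98.0 to 127 CPM in WT mice. For Hspa1b they measured 0.969, 1.11, 1.15, 16.2, and 4.92 CPM, against 1.48 to 3.52 CPM. In each of these genes the 3 Arntl-high C151S mice lay below every WT mouse. The Arntl-low pair lay above every WT mouse for Dnaja1 and Hspa1b.

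With only Arntl-high libraries (3 C151S against 5 WT mice), 6 of 9 members were called, all lower, where 14.2% of 14305 genes were called. Besides Hsp90aa1 (-1.14) and Hspb1 (-1.05) these were Hsph1 (-1.22, SE 0.18, edgeR adjusted p = 0.00198), Dnaja1 (-0.71, SE 0.10, edgeR adjusted p = 0.00148), Hspa8 (-0.61, SE 0.12, edgeR adjusted p = 0.00712), and Hspa1b (-1.24, SE 0.27, edgeR adjusted p = 0.0103). With all 5 C151S mice Hspa1b had been higher by 0.90 (SE 0.71, edgeR adjusted p = 0.45), so that its direction turned. Hspd1 was at 0.01 (SE 0.08) without the Arntl-low pair and 0.06 (SE 0.07) with it.

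After CDDO-Me, Hspa1b and Dnajb1 were higher in C151S than in WT mice. Of 10 members 2 were called, both higher, against 5.0% of 13844 genes called and 2.2% called higher. Hspa1b measured 1.76, 2.05, 2.15, 2.698, and 3.84 CPM in CDDO-Me-treated WT mice and 5.08, 3.23, 11.2, 7.43, and 8.20 CPM in C151S mice, of which the last 3 were Arntl-low. Of the C151S mice 4 of 5 lay above every WT mouse (1.498, SE 0.31, edgeR adjusted p = 0.0179). Dnajb1, the J protein that starts the HSP70 cycle and restrains HSF1, measured 17.8, 17.3, 15.8, 19.8, and 23.7 CPM in WT and 29.0, 17.9, 34.5, 36.3, and 40.6 CPM in C151S mice. Here too 4 of 5 C151S mice lay above every WT mouse (0.76, SE 0.19, edgeR adjusted p = 0.0358).

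Neither call held without the Arntl-low libraries. With 2 C151S against 5 WT mice 0 of 10 members were called, where 2.03% of 14499 genes were, and the estimates were 0.73 for Hspa1b (SE 0.31, edgeR adjusted p = 0.287) and 0.32 for Dnajb1 (SE 0.20, edgeR adjusted p = 0.477). Both calls were also lost on leaving out WT replicate 1, 2, or 3, with adjusted p of 0.0544 to 0.0562 for Hspa1b and 0.0945 to 0.101 for Dnajb1 (edgeR). The estimates then were 1.39 to 1.44 for Hspa1b and 0.69 to 0.73 for Dnajb1. Calls over all genes fell as well, from 692 with every mouse to 379 to 382 without 1 of these. The call of Dnajb1 was lost without WT replicate 4 (0.0764) or C151S replicate 3, 4, or 5 (0.0727 to 0.0945) as well. In those fits it was at 0.65 to 0.77, and 421 to 609 genes were called in all. Hspa1a was called without C151S replicate 2 (1.90, edgeR adjusted p = 0.0362). In the fit of all 30 libraries the adjusted p of Hspa1b was 0.0799. In this comparison the macrophage marker Marco was lower and Fcgr2b higher in C151S mice, and their part in the result was not tested.

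**Figure D4:**
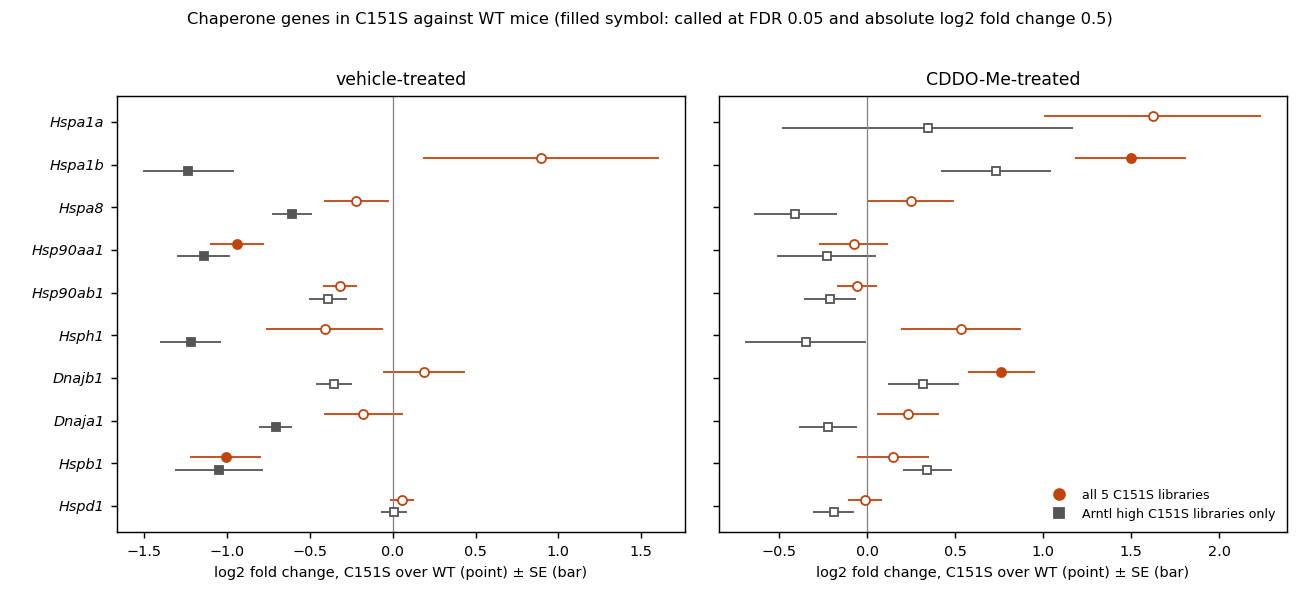
Log2 fold change of each chaperone gene in C151S over WT mice (x axis) with SE (bars), with vehicle on the left and CDDO-Me on the right, for all 5 C151S libraries (red circles) and for the Arntl-high ones only (grey squares, 3 and 2 libraries). Filled symbols are called, 2 circles on each side and, among the squares, 6 on the left and 0 on the right. Hspa1a was not tested with vehicle.

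In CDDO-Me-treated Nrf2-knockout mice 0 of 9 members differed from WT by the call rule (background 9.44% of 13935 genes), and 0 by DESeq2. An unadjusted p under 0.05 was reached by 28.8% of all genes and by 1 member, Hspb1 (-0.70, SE 0.27, edgeR adjusted p = 0.108). Leaving out Nrf2-knockout replicate 1 gave a call for Hspb1 (-0.91, edgeR adjusted p = 0.0388). Against CDDO-Me-treated C151S mice 0 of 10 were called (background 0.162% of 14186 genes), and 0 by DESeq2. An unadjusted p under 0.05 was reached by 7.82% of all genes and by 4 members. Those 4, Hspa1a, Hspa1b, Dnajb1, and Hspb1, were lower in Nrf2-knockout mice. Dnajb1 was at -0.70 (SE 0.19, edgeR adjusted p = 0.321), and was called without C151S replicate 2 (-0.85, edgeR adjusted p = 0.0301).

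Within the C151S line the chaperones were split in the same way as Arntl. The 10 C151S mice had 5 Arntl-low and 5 Arntl-high libraries, drawn from both treatments. In the listed order of the samples, the 5 Arntl-high libraries came first and the 5 Arntl-low ones after them. The former were vehicle-treated replicates 1 to 3 and CDDO-Me-treated replicates 1 and 2. The labels do not give the date of isolation, so that date and Arntl side could not be separated, and a part of date was not tested. For Hspa8, Hsp90ab1, Dnaja1, Hspd1, and Hspa1a, every Arntl-low library lay above every Arntl-high one. This was 5 of 10 members, where 6.5% of 15010 genes did so. Dnaja1 lay between 131 and 165 CPM in Arntl-low and between 63.1 and 110 CPM in Arntl-high C151S mice. Hspa8 lay between 685 and 959 CPM in the former and between 350 and 513 CPM in the latter. Hsph1 (57.1 to 122 against 22.5 to 58.2 CPM), Hspa1b (4.92 to 16.2 against 0.969 to 5.08 CPM), and Dnajb1 (26.5 to 40.6 against 12.3 to 29.0 CPM) overlapped by 1 library, CDDO-Me-treated replicate 1. The median log2 difference of the 10 members was 0.96, against 0.00 over all genes, and 1.91% of genes had a difference at least that large.

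Hspb1 did not share this split (3.31 to 7.87 against 2.68 to 6.71 CPM). Hsp90aa1 overlapped (80.1 to 126 against 54.9 to 126 CPM), though its mean was higher in Arntl-low libraries (104 against 77.3 CPM). Its overlap came from CDDO-Me-treated replicate 1 (125.8 CPM) and vehicle-treated replicate 3 (80.6 CPM). The summed lymphocyte and granulocyte markers lay between 2.31 and 3.58 CPM in Arntl-low and between 4.23 and 15.8 CPM in Arntl-high C151S mice, and the other 5 marker lists overlapped. The part of these cells, or of the clock, in the chaperone levels was not tested.

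The Nrf2-knockout line, with 6 Arntl-low and 4 Arntl-high libraries, gave other values. There 0 of 10 members had every Arntl-low library above every Arntl-high one, where 1.75% of genes did, and the member median was 0.12 against 0.00. Hsph1 lay between 30.7 and 62.6 CPM in Arntl-low and between 22.2 and 54.6 CPM in Arntl-high knockout mice. Hspa8 ranged from 511 to 799 CPM in the former and from 378 to 658 CPM in the latter. The Arntl-low mean was 0.81, 0.86, 0.88, and 0.94 times the Arntl-high one for Hsp90aa1, Hspb1, Dnajb1, and Hsp90ab1. For the other members it was 1.04 to 1.77 times. Whether the split differed between the lines was not tested. With only Arntl-low libraries CDDO-Me-treated Nrf2-knockout mice were lower than C151S mice in 2 members, Hsph1 (-0.96, SE 0.16, edgeR adjusted p = 0.0488) and Dnajb1 (-0.99, SE 0.15, edgeR adjusted p = 0.0342), where 0.646% of 14240 genes were called.

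**Figure D5:**
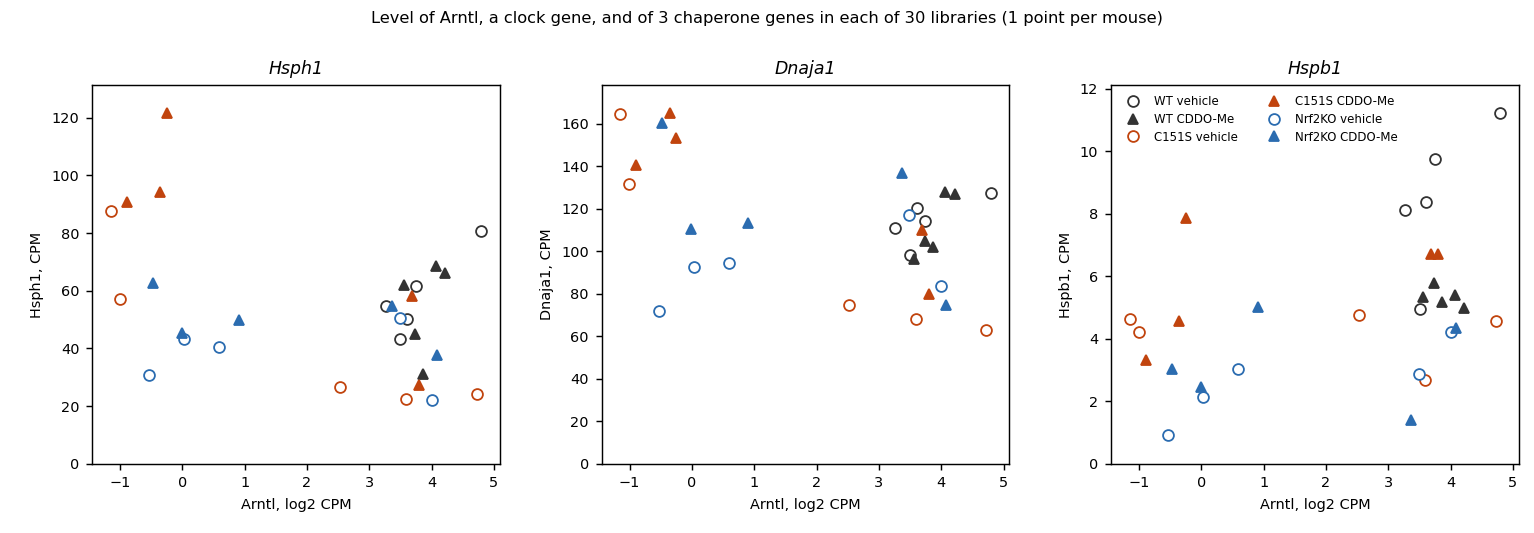
Level of Arntl (log2 CPM, x axis) and of Hsph1, Dnaja1, and Hspb1 (CPM, y axes, linear from 0) in 30 libraries, coloured by genotype, with open circles for vehicle and filled triangles for CDDO-Me. The libraries form a left cluster up to 0.90 and a right cluster from 2.52 on the Arntl axis. Among the red C151S points, those of Dnaja1 on the left lie above all on the right, which is not so for Hspb1 or for the blue Nrf2-knockout points.

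Most members moved together between mice of a group. Each gene's deviations from its group means were correlated over the 30 libraries, a description that carries no test. The libraries pool both Arntl sides of the mutant lines, and WT mice were not taken alone. The closest pair was Hspa8 and Hsph1 (Pearson r = 0.92). Hspb1 stood apart, with a median r of 0.01 to the other 9 members. The median was 0.45 for Hsp90aa1 and Hsp90ab1, 0.48 for Hspd1, and between 0.62 and 0.73 for the rest. When the mean deviation of the members was set against all 15010 genes, the highest correlations outside the list were those of Bag3, a co-chaperone that releases HSP70 clients (0.89), Chordc1, an HSP90-binding co-chaperone (0.88), Utp18 (0.86), Tsku (0.86), and Uspl1 (0.85). The lowest were those of Fzd6 (-0.86), Atxn7l1 (-0.84), Dlc1 (-0.84), Rnf125 (-0.84), and Sap130 (-0.83). The core clock gene Per2 was at 0.79, Hspe1, the partner of Hspd1, at 0.65, and Hsf1 at 0.46. The cold-inducible genes went both ways, with Cirbp at -0.58 and Rbm3 at 0.29. Arntl was at -0.63, and among other clock genes Dbp was at 0.45, Nr1d1 at -0.43, and Clock at -0.59.

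Other chaperones and co-chaperones were taken from lists by function. Their results rest on all libraries and were not recomputed without the Arntl-low ones. None of the 6 heat shock factors and regulators tested was called in any comparison by edgeR, and Hsf1 lay between 12.8 and 20.1 CPM in all libraries. In WT mice given CDDO-Me, 1 of 19 HSP90 co-chaperones was called, Fkbp5, a glucocorticoid-induced immunophilin, which rose by 0.97 (SE 0.21, edgeR adjusted p = 0.0207). Of all genes 1.66% were called higher in this comparison. No gene of the other HSP70 family members and exchange factors, J proteins, small heat shock proteins, mitochondrial chaperones, chaperonin and prefoldin, or endoplasmic reticulum (ER) lists was called there by edgeR.

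Most ER chaperones were lower in the mutant lines at baseline. In vehicle-treated C151S against WT mice 12 of 15 were lower (median of the list -0.86), where 2.25% of all genes were. In Nrf2-knockout mice 11 of 15 were lower (-0.72), where 4.13% of all genes were, and no ER gene was called higher in either comparison. Hspa5, the ER HSP70, was at -1.36 (SE 0.16, edgeR adjusted p = 0.00113) in C151S and at -1.19 (SE 0.16, edgeR adjusted p = 0.00129) in Nrf2-knockout mice. Hsp90b1, the ER HSP90, was at -0.88 (SE 0.10, edgeR adjusted p = 0.00104) and -0.77 (SE 0.11, edgeR adjusted p = 0.00134). Creld2 was at -2.41 and -2.13, and Hyou1, the ER counterpart of HSP110, at -1.78 and -1.62 in the 2 lines. Sdf2l1, a cofactor of Hspa5, was at -1.73 and -1.41, and the ER J protein genes Dnajb11 and Dnajc3 at -0.98 and -0.69 in C151S and at -0.71 and -0.84 in Nrf2-knockout mice. After CDDO-Me 0 of 15 were called in C151S against WT mice by edgeR (background 5.0%), and 5 of 15 were lower in Nrf2-knockout mice (background 4.85% called lower). The response of Creld2 differed between C151S and WT mice (2.29, SE 0.50, edgeR adjusted p = 0.0249).

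Of the 19 HSP90 co-chaperones, Fkbp4 (-0.72, edgeR adjusted p = 0.0069) and Stip1 (-0.55, edgeR adjusted p = 0.0149), which link HSP70 and HSP90 to steroid receptors, were lower in vehicle-treated C151S than in WT mice. Fkbp4 (-0.71, edgeR adjusted p = 0.0036) and Cacybp (-0.65, edgeR adjusted p = 0.00833) were lower in Nrf2-knockout mice. Of all genes 2.25% were called lower in C151S and 4.13% in Nrf2-knockout mice. Of 15 other HSP70 family members and exchange factors, 4 were called in each line (background 4.84% in C151S and 10.4% in Nrf2-knockout mice), Hspa4l and Hspa13 lower and Hspa2 and Hspa12b higher, with the same WT mice in both comparisons. Hspa2 was higher by 1.05 in C151S mice (SE 0.29, edgeR adjusted p = 0.0451) and by 1.24 in Nrf2-knockout mice (SE 0.16, edgeR adjusted p = 0.000915). The small heat shock protein gene Hspb6 was lower in C151S mice (-0.90, edgeR adjusted p = 0.00303). In CDDO-Me-treated C151S against WT mice, Fkbp5 (1.498, edgeR adjusted p = 0.0422) and Hspb8 (0.63, edgeR adjusted p = 0.0446) were higher beside Hspa1b and Dnajb1, and Dnajb14 was lower (-0.58, edgeR adjusted p = 0.00849). The calls of Hspa1b and Dnajb1 were lost without the Arntl-low libraries, and those of Fkbp5, Hspb8, and Dnajb14 were not recomputed without them. In CDDO-Me-treated Nrf2-knockout against WT mice, Dnajb14 (-0.82), Hspb6 (-1.04), Hyou1 (-1.04), and Manf (-0.75) were lower and Hspa2 (1.15) was higher. None of the 10 listed mitochondrial chaperones, which leave out Hspd1, was called in any comparison by edgeR.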

How the data were processed

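Liver mRNA (TruSeq Stranded mRNA, paired 50-base reads) was measured in 30 mice. The authors aligned reads to mm10 with STAR 2.7.7 and deposited raw counts per gene, unnormalized, for uniquely placed reads on the library strand with GENCODE release 23. Symbols and exon lengths came from GENCODE release 21 (55154 of 55335 genes), and promoter sequences from RefSeq (GRCm38.p6). The 4 STAR summary lines were left out, and 65.9% to 80.6% of reads fell on genes.

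Samples were grouped by label. The label of 1 CDDO-Me-treated C151S library has a letter missing in its title, and its treatment label was used. Each pair of groups was fitted in edgeR 4.0.16 (R 4.3.3) with filterByExpr, trimmed mean of M values, and the quasi-likelihood F-test (legacy fit), with Benjamini-Hochberg adjustment over all genes tested. Genes were called at a false discovery rate below 0.05 with a log2 fold change of 0.5 or more in either direction. SE is the log2 fold change over the square root of F, and 95% intervals use the total (residual plus prior) degrees of freedom of the fit. Differences between responses used all 30 libraries, without a fold threshold. The study's covariate of isolation date was not used here. Log2 CPM used a prior count of 2. Reads carry no molecular identifiers. Scripts were tested on simulated data.

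Members and lists were chosen with earlier results of these data known. All 10 members were named, from the other lists the 5 called genes with the lowest p in a comparison, and the 5 genes at each end of the correlation. Arntl, other clock genes, Cirbp, Rbm3, Nfe2l2, and Nqo1 were named as checks, and further names were chosen after their values were seen. Alternatives were DESeq2 1.42.0, its size factors or upper quartiles in edgeR, the edgeR 4 fit, no filter, a filter of 10 counts in all libraries, the replicate block, the Arntl side as covariate, Arntl-high or Arntl-low libraries only, 1 fit of 30 libraries, no fold threshold, and each mouse left out.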

Additional observations from a re-analysis of the deposited data

Results flagged for a closer look

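Of 60 groups examined (10 genes in 6 groups of 5 mice), 4 held a mouse far from the others by Dixon's criterion, and chance flags about 1 in 20 groups. Hspa1b stood at 16.2 CPM in vehicle-treated C151S replicate 4, an Arntl-low library, against 0.969 to 4.92 CPM in the other 4 mice. Hspb1 stood at 2.68 CPM in vehicle-treated C151S replicate 1, against 4.21 to 4.76 CPM. In vehicle-treated Nrf2-knockout replicate 5, Hspa1a had 0 CPM, against 0.264 to 0.361 CPM, and Hspd1 had 317 CPM, against 384 to 408 CPM. The causes were not tested.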

How the results depend on the processing

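Of 2667 recomputed member values, 2631 stayed on their side of the threshold, 17 lost a call, 17 gained one, and 2 turned sign with a call. Among the 2631, 130 turned sign without a call on either side. Both reversals were Hspa1b in vehicle-treated C151S against WT mice, -1.24 with Arntl-high libraries only and -1.23 with the Arntl side as a covariate. Of 278 counts of called members, 20 moved by more than 1.5 times. For WT mice given CDDO-Me the 0 called became 1 (Hspb1) with DESeq2 and 1 without a filter on low counts, and 0 to 1 with a mouse left out. Calls over all genes went from 377 to 542 and 482 in the first 2 settings, and to 374 without vehicle-treated replicate 4. For vehicle-treated C151S against WT mice the 2 became 6 with the Arntl covariate, 6 with Arntl-high libraries only, and 1 in the fit of all 30 libraries. Calls over all genes moved too, from 675 to 1904, 2030, and 382 in the same order. For vehicle-treated Nrf2-knockout against WT mice the 2 became 1 with the Arntl covariate, where Hspb1 was at -1.23 (edgeR adjusted p = 0.0848). Over all genes 1462 calls became 954. For CDDO-Me-treated C151S against WT mice the 2 became 0 with the Arntl covariate, 0 with Arntl-high libraries only, and 1 in the fit of all 30 libraries, and ranged from 0 to 3 with a mouse left out. Over all genes the 692 calls became 383, 294, and 1001 in the first 3 of these settings. For CDDO-Me-treated Nrf2-knockout mice, the 0 against WT ranged from 0 to 1 with a mouse left out, and the 0 against C151S from 0 to 1, and became 2 with Arntl-low libraries only. Against C151S mice the calls over all genes were 23 in the main fit and 92 with Arntl-low libraries only. Same-numbered vehicle-treated and CDDO-Me-treated mice had a mean correlation of deviations of 0.05 in WT, 0.09 in C151S, and 0.18 in Nrf2-knockout mice, with 2 of 5 pairs over 0.1 in each. Differently numbered mice had a mean of -2e-04, -0.02, and -0.04. With 5 pairs per genotype these values cannot decide whether same-numbered mice shared a block, and the main fits were unpaired. With the replicate block the counts were 2 in both comparisons of vehicle-treated mutant and WT mice, 3 in CDDO-Me-treated C151S against WT mice (Hspa1a added, 1.68, edgeR adjusted p = 0.0362), and 0 in the other 9. The Arntl covariate could not be fitted within WT mice, which had no Arntl-low library. Other causes were not tested. Depth limits Hspa1a, which was not tested in 5 comparisons.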
